A study of Rattus norvegicus with 2 samples.

Results

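The 43 genes described here are the Wnt pathway genes found by symbol in the protein-coding tables of 2 libraries of rat myocardium. The symbols taken were Wnt, Fzd, Dkk, Sfrp, Rspo or Dvl followed by a digit, together with Frzb, Wif1, Lrp5, Lrp6, Axin1, Axin2, Ctnnb1, Apc, Tcf7l1, Tcf7l2 and Lef1. They are 43 of the 13706 genes listed in either table. The set holds ligands, receptors and inhibitors, and also the cytoplasmic and nuclear parts of the pathway. Both tables listed 38 of the genes, 1 was in the KXH table only and 4 were in the water table only. Among RefSeq symbols 55 fit the same name rule, and the 12 of these with no row in either table are not analysed here. Axin1 had no row in either table, so Axin2 is the only Axin gene in the set.

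Both groups were spontaneously hypertensive rats, whose blood pressure rises with age without surgery or salt and whose hearts enlarge. The animals received KXH, the Jiangya Kangxian formula at its high dose (9.6 g/kg), or distilled water, both given intragastrically over 12 weeks. Total RNA of the myocardium gave 1 library per group, and nothing in the labels tells if tissue of several animals was pooled. The tables held 14.1 M reads for KXH and 15.1 M for water (M, 1000000). A single library a group meant that no test between the treatments was possible. "Higher" and "lower" therefore describe these 2 libraries, and the 95% intervals cover the counting error of reads and no variation between animals. Ventricular muscle markers were abundant, with the light chain Myl2 at 1168 RPKM with KXH and 999 RPKM with water (RPKM, reads per kilobase of gene length per M reads).

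Wnt proteins are secreted lipid-modified ligands that bind Frizzled receptors and, in the beta-catenin branch, the coreceptors Lrp5 and Lrp6. Binding recruits Dishevelled and holds back a destruction complex of Axin, Apc and kinases, so that beta-catenin enters the nucleus and joins the TCF/LEF factors on target genes. Other branches act through cell polarity and calcium without beta-catenin. In the adult heart the pathway is largely quiet, and it is known to be re-engaged in fibroblasts, vessels and epicardium after injury.

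Of the 43 genes, 8 had a counting interval below a ratio of 1 (KXH over water) and 0 had one above 1. These were the ligand Wnt5a, the receptors Fzd6 and Fzd4, the coreceptors Lrp6 and Lrp5, the ligand-binding inhibitors Sfrp1 and Sfrp5, and beta-catenin (Ctnnb1). The interval thus lay below 1 for 18.6% and above 1 for 0% of the Wnt genes, against 13.5% and 8.97% of all 13706 genes. With TMM or median-ratio scaling the Wnt genes numbered 6 below and 0 above, against 11.3% and 11.0% of all genes under the TMM scaling and 10.9% and 11.4% under the other. In bulk tissue, fewer cells of a type and less RNA per cell cannot be told apart. Of the 8 genes, Sfrp5 was farthest from 1, at a ratio of 0.395 from 67 reads in all. Among the 25 Wnt genes with at least 100 reads over both libraries, which leave out Sfrp5, 0 were 1.5-fold apart in either direction. This is near the shares among all such genes, 0.704% higher and 1.51% lower, and is not read as particular to the Wnt genes.

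An interval leaves 1 more easily at greater depth, so the count was also read within classes of depth. Of the 14 Wnt genes with at least 500 reads, 6 lay below 1 (42.9%) and 0 above, against 19.3% and 13.6% of all genes at that depth. Of the 11 with at least 100 and under 500 reads, 1 lay below (9.09%) and 0 above, against 11.6% and 7.03%. Of the 9 with 20 to 99 reads, 1 lay below (11.1%) and 0 above, against 9.92% and 4.04%. Of the 9 with 1 to 19 reads, 0 lay on either side, against 1.58% below and 1.4% above. The 6 include Fzd4 and Lrp5, whose intervals include 1 under other scalings, with 99% intervals and after division by the median ratio of genes of like length. With TMM scaling 4 of the 14 lay below 1 (28.6%), against 15.5% of all genes with at least 500 reads. Over the whole set the share below 1 was near that of all genes. Long genes tended to lower ratios throughout these libraries, with a median log2 ratio of -0.07 in the longest of 10 length classes and 0.06 in the shortest. Of the 8 Wnt genes below 1, 6 belong to the 2 longest classes. Among genes of those classes with at least 500 reads, 5 of 8 Wnt genes (62.5%) lay below 1 and 0 above, against 30.4% and 9.93% of all genes. With TMM scaling 3 of the 8 lay below (37.5%), against 24.4%. After the length adjustment 3 of the 8 lay below and 1, Apc, above, against 15.4% and 19.3%. The part of gene length in the result was not tested beyond this and the length-adjusted values given below.

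**Figure D1:**
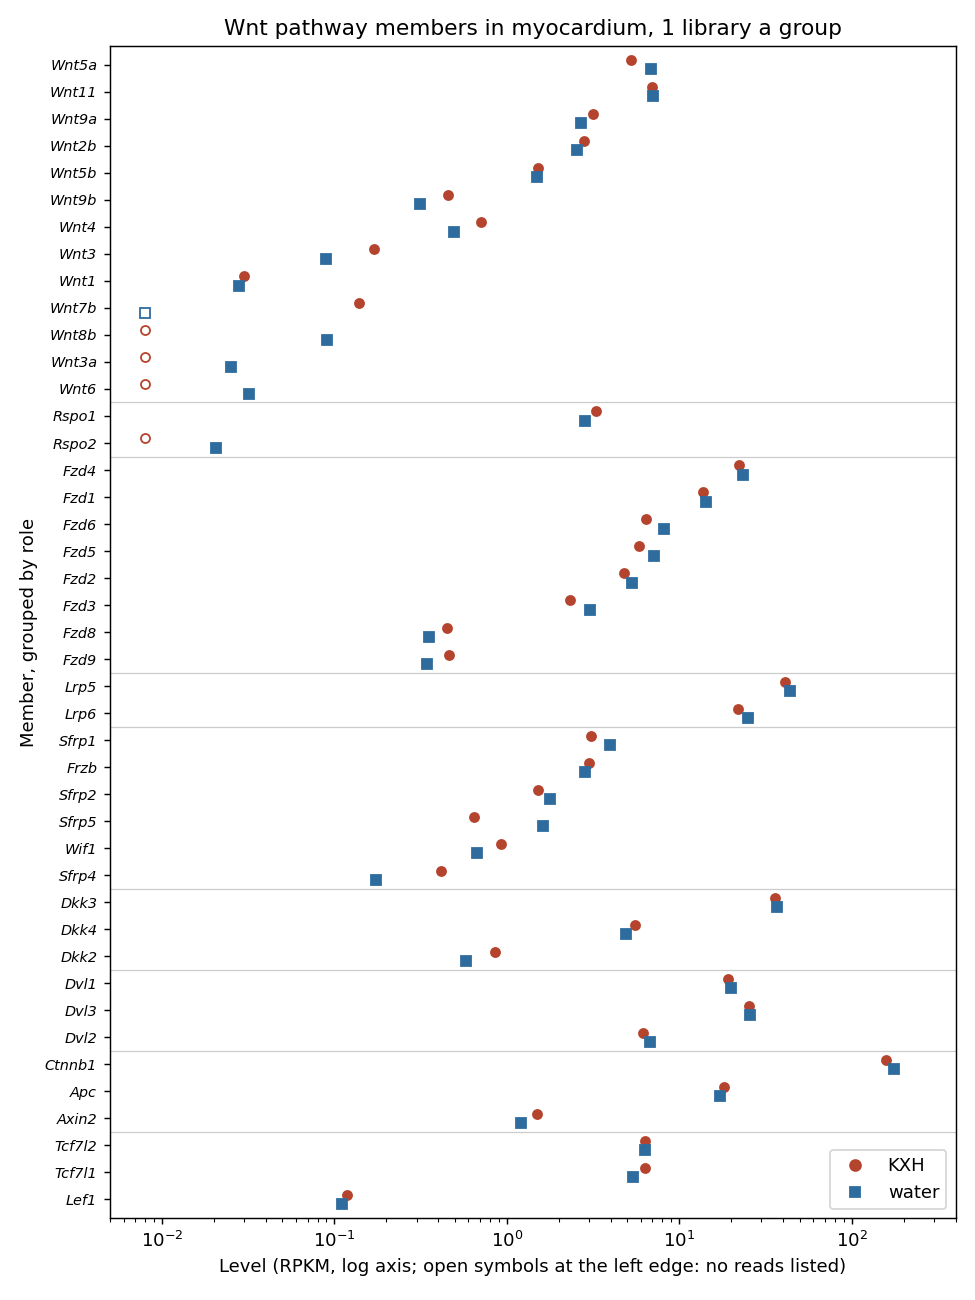
Level of each of the 43 Wnt pathway genes in the KXH library (circles) and the water library (squares), in RPKM on a log axis, grouped by role from ligands at the top to transcription factors at the bottom; there is 1 library per group and no error bar. Ctnnb1 is the highest gene in both libraries, at 159 RPKM with KXH and 176 RPKM with water, and every ligand lies below 10 RPKM.

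The genes also divided by level. Ctnnb1 was alone above 100 RPKM, 9 genes were at 10 RPKM or more in both libraries, and 15 were under 1 RPKM in both. By the mean of both libraries, beta-catenin was followed by the coreceptor Lrp5, the secreted glycoprotein Dkk3 and the adaptor Dvl3, and then by Lrp6 and the receptor Fzd4, whose order differed between the libraries. The highest ligand, Wnt11, was at rank 11 of 43.

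Among the ligands, Wnt5a stood lower with KXH, while the others had intervals that include 1. Wnt5a, the best-known ligand of the branches that do not use beta-catenin, had 399 reads (5.23 RPKM) with KXH and 564 reads (6.89 RPKM) with water. Its ratio was 0.760 (interval 0.667 to 0.865), which is 1.32-fold lower. Divided by the median ratio of its length class, here called the length adjustment, it was 0.796. Wnt11, a ligand of the same kind that takes part in heart development, had 254 reads (7.0 RPKM) with KXH and 274 reads (7.03 RPKM) with water. The ratio of Wnt11 was 0.996 (0.836 to 1.19), and it passed to the other side of 1 under TMM scaling (1.01). Set directly against each other, Wnt5a relative to Wnt11 was lower with KXH by a ratio of 0.763 (0.613 to 0.95), a comparison in which library scaling cancels. Wnt5a made up 24.7% of the summed ligand RPKM with KXH and 31.7% with water, and Wnt11 made up 33.0% and 32.3%.

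The ligand Wnt9a, which acts in joint and valve development, had 149 reads (3.18 RPKM) with KXH and 136 reads (2.70 RPKM) with water. This gave a ratio of 1.18 (0.926 to 1.5). Wnt2b, a ligand of the beta-catenin branch, had 70 reads (2.81 RPKM) with KXH and 68 reads (2.54 RPKM) with water, at a ratio of 1.11 (0.781 to 1.57). For neither was a difference detectable at this depth. Wnt5b, a close relative of Wnt5a, had 45 and 48 reads in the KXH and water libraries (ratio 1.01, 0.655 to 1.55), so its interval does not exclude the ratio seen for Wnt5a. Wnt9b, with 30 and 22 reads, and Wnt4, with 12 and 9 reads in the KXH and water libraries, had ratios of 1.47 (0.817 to 2.67) and 1.43 (0.554 to 3.85).

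The remaining ligands were close to absent. Wnt3 had 7 reads with KXH and 4 with water, and Wnt1 had 1 read in each library. Wnt7b had 2 reads with KXH and 0 with water, whereas Wnt8b had 0 with KXH and 2 with water. Wnt3a and Wnt6 had 0 reads with KXH and 1 with water. A count of 0 allows up to 3 reads, which is 0.213 reads per M reads of the KXH library and 0.199 of the water library, so no fold is given for these genes. The R-spondins, secreted proteins that strengthen Wnt signalling through Lgr receptors, were represented by Rspo1. It had 79 reads (3.30 RPKM) with KXH and 73 reads (2.84 RPKM) with water, a ratio of 1.16 (0.835 to 1.62). Rspo2 had 0 reads with KXH and 1 with water.

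**Figure D2:**
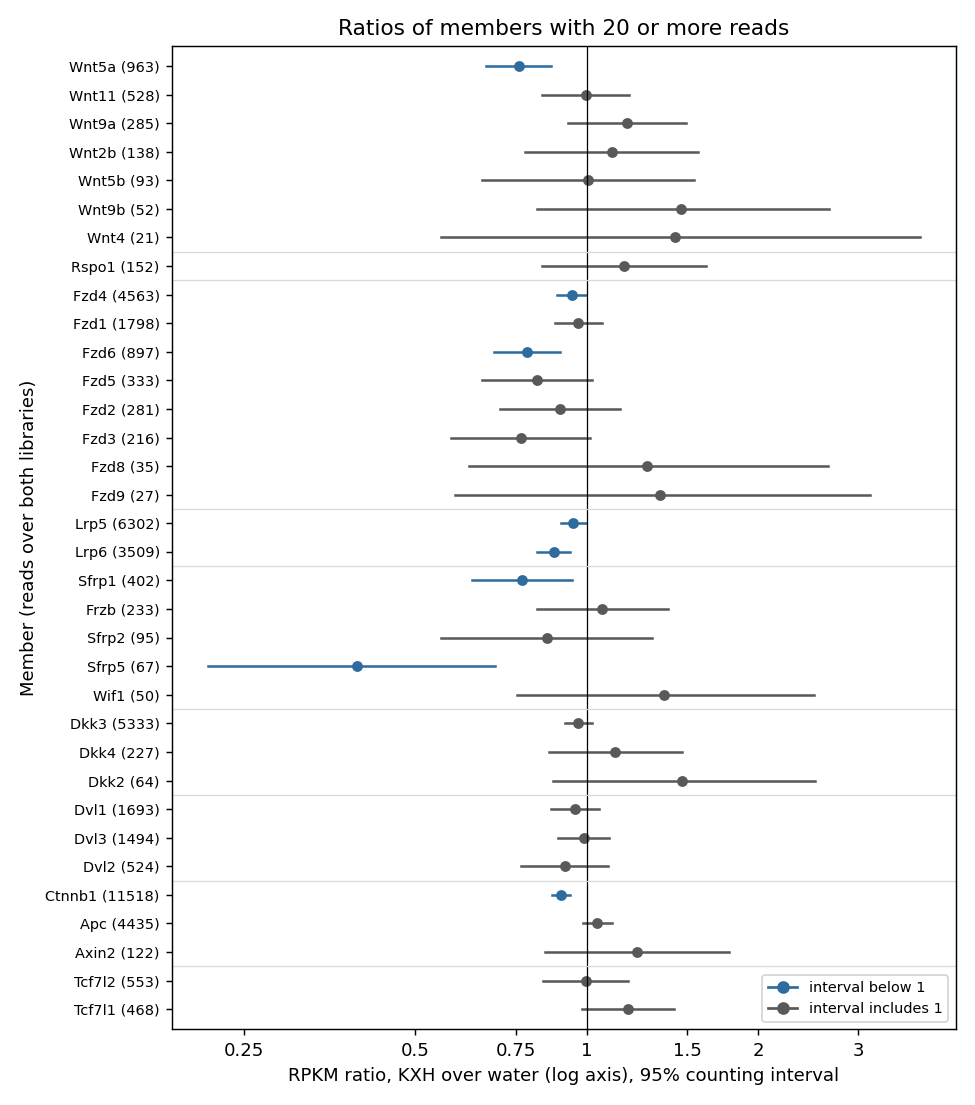
RPKM ratio of KXH over water on a log axis for the 34 Wnt pathway genes with at least 20 reads over both libraries (reads in brackets), with 95% intervals that cover counting error only. The 8 genes in blue, from Sfrp5 at 0.395 to Lrp5 at 0.947, have intervals below 1 and no gene has an interval above it.

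The Frizzled receptors, which bind the ligands at the cell surface, had ratios under 1 in 6 of 8 members, and the interval of 2 lay below 1 (1 with TMM scaling). Among all genes with at least 20 reads 55.3% of ratios were under 1 and 15.8% of intervals lay below it. The exceptions were Fzd8 and Fzd9, with 35 and 27 reads in all and ratios of 1.28 and 1.34 whose intervals include 1. Fzd4, which also serves the ligand norrin in vessels, was the most abundant, with 2132 reads (22.1 RPKM) with KXH and 2431 reads (23.5 RPKM) with water. Its ratio of 0.942 had an interval of 0.888 to 0.999, which includes 1 under TMM scaling (0.955) and after the length adjustment (0.987). Fzd1 had 852 reads (13.8 RPKM) with KXH and 946 reads (14.2 RPKM) with water, at a ratio of 0.967 (0.881 to 1.06). No difference was thus detectable for Fzd1.

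Fzd6, a receptor known from planar polarity, had 379 reads (6.42 RPKM) with KXH and 518 reads (8.16 RPKM) with water. The ratio was 0.786 (0.687 to 0.899), and 0.810 after the length adjustment. Relative to Fzd4, Fzd6 was lower with KXH by a ratio of 0.834 (0.720 to 0.967). Its relative Fzd3, also a polarity receptor, had 90 reads (2.32 RPKM) with KXH and 126 reads (3.03 RPKM) with water, and a ratio of 0.767 (0.579 to 1.01). Fzd5, a receptor for Wnt5a among others, had 144 reads (5.83 RPKM) with KXH and 189 reads (7.12 RPKM) with water. That ratio was 0.818 (0.654 to 1.02), so the intervals of both genes reach just past 1. Fzd2, another receptor reported to bind Wnt5a, had 128 reads (4.78 RPKM) with KXH and 153 reads (5.32 RPKM) with water, at a ratio of 0.899 (0.705 to 1.14). Summed over the 8 receptors the level was 56.2 RPKM with KXH and 62.1 RPKM with water.

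Both coreceptors were slightly lower. Lrp6, the coreceptor on which most beta-catenin signalling depends, had 1576 reads (22.0 RPKM) with KXH and 1933 reads (25.1 RPKM) with water. Its ratio was 0.876 (0.819 to 0.936), and 0.918 after the length adjustment. Lrp5, its relative known for setting bone mass, had 2953 reads (41.3 RPKM) with KXH and 3349 reads (43.6 RPKM) with water, a ratio of 0.947 (0.901 to 0.995). The Lrp5 interval includes 1 under TMM scaling (0.960) and after the length adjustment (0.993). Lrp6 relative to Lrp5 gave 0.925 with an interval of 0.850 to 1.01, so the coreceptors could not be told apart in how far they differed.

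**Figure D3:**
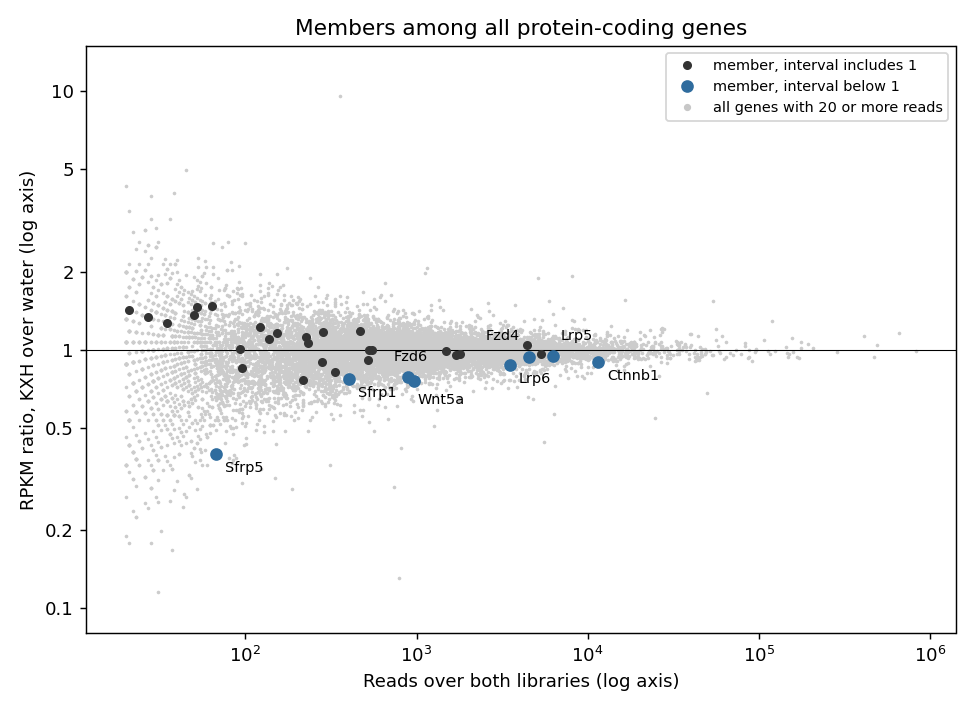
RPKM ratio of KXH over water against reads over both libraries (both axes log), for the 11489 genes with at least 20 reads (grey, 3 of them with reads in 1 library only and not drawn) and the Wnt pathway genes among them (dark and blue points). The spread of all genes narrows with depth; Sfrp5 is the Wnt gene farthest from 1, at 0.395, followed by Wnt5a at 0.760 among those with intervals below 1.

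Secreted inhibitors of the Sfrp family carry a Frizzled-like domain and hold Wnt ligands away from their receptors. Here the intervals of Sfrp5 and Sfrp1 lay below 1, and those of Frzb, Sfrp2 and Sfrp4 include 1. This does not show that the members differ from each other, and Sfrp5 was not set against a relative. Sfrp5, an inhibitor known in fat tissue as an antagonist of Wnt5a, had 18 reads (0.644 RPKM) with KXH and 49 reads (1.63 RPKM) with water. This was the lowest ratio of the set with at least 20 reads, 0.395 (0.216 to 0.690), or 2.54-fold lower, from 67 reads in all. Sfrp1, an inhibitor studied in the injured heart, had 168 reads (3.07 RPKM) with KXH and 234 reads (3.98 RPKM) with water. The ratio of Sfrp1 was 0.771 (0.629 to 0.944), and 0.795 after the length adjustment. Frzb, a relative of the same family, had 116 reads (3.01 RPKM) with KXH and 117 reads (2.83 RPKM) with water, at a ratio of 1.06 (0.817 to 1.39). Frzb relative to Sfrp1 gave 1.38 with an interval of 0.985 to 1.94, which includes 1.

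The other ligand-binding inhibitors were sparse. Sfrp2 had 42 reads with KXH and 53 with water (ratio 0.851, 0.554 to 1.30), and Wif1, which binds Wnt ligands through another domain, had 28 and 22 reads in the KXH and water libraries (1.37, 0.754 to 2.51). Sfrp4 had 11 reads with KXH and 5 with water, with an interval of 0.757 to 8.68 that includes 1. Summed over the 6 genes, the inhibitors reached 9.58 RPKM with KXH and 11.1 RPKM with water. Sfrp5 made up 6.72% of that sum with KXH and 14.7% with water.

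Dickkopf proteins, of which Dkk2 and Dkk4 bind Lrp coreceptors, had intervals that all include 1. Dkk3, a divergent member without a settled role in the pathway, had 2527 reads (35.9 RPKM) with KXH and 2806 reads (37.1 RPKM) with water. Its ratio of 0.967 had a narrow interval of 0.916 to 1.02. Dkk4 had 116 reads (5.53 RPKM) with KXH and 111 reads (4.93 RPKM) with water, a ratio of 1.12 (0.858 to 1.47). Dkk2 had 37 reads with KXH and 27 with water, at 1.47 (0.872 to 2.51).

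Of the genes for beta-catenin and its destruction complex, Ctnnb1 was lower, and Apc and Axin2 had intervals that include 1. These are RNA levels of whole tissue, and neither protein nor its place in the cell was measured. Ctnnb1, which also ties cadherins to the cytoskeleton at the intercalated discs of heart muscle, had 5253 reads (159 RPKM) with KXH and 6265 reads (176 RPKM) with water. Its ratio was 0.901 (0.868 to 0.934), and 0.909 after the length adjustment. Apc, the scaffold that marks beta-catenin for breakdown, had 2186 reads (18.1 RPKM) with KXH and 2249 reads (17.4 RPKM) with water, a ratio of 1.04 (0.984 to 1.11). After the length adjustment Apc stood at 1.09 with its interval above 1. Apc relative to Ctnnb1 was higher with KXH by a ratio of 1.16 (1.08 to 1.24). That comparison, with those of Wnt5a and Fzd6 above, made 3 intervals off 1 among 16, with no correction for their number. In each, a gene of at least 100 reads was set against the most abundant gene of its role. No such pairs were compared outside the set, so the count has no background share and is not read as a result about these genes. For single genes with at least 500 reads, 13.6% of intervals lay above 1 and 19.3% below.

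Dishevelled adaptors pass the signal from Frizzled to Axin. Dvl1 had 797 reads (19.2 RPKM) with KXH and 896 reads (20.1 RPKM) with water, at 0.955 (0.867 to 1.05). Dvl3 had 716 reads (25.4 RPKM) with KXH and 778 reads (25.7 RPKM) with water, at 0.989 (0.892 to 1.10). Dvl2 had 241 reads (6.16 RPKM) with KXH and 283 reads (6.73 RPKM) with water, at 0.915 (0.767 to 1.09). No difference was detectable for these adaptors, and the ratio of Dvl3 passed 1 under TMM scaling (1.00).

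Axin2, a scaffold of the destruction complex, is switched on by beta-catenin itself and is the usual transcript readout of that branch. It had 65 reads (1.49 RPKM) with KXH and 57 reads (1.22 RPKM) with water. The ratio was 1.22 (0.845 to 1.78), and a difference in either direction could not be seen at this depth. Because Axin2 is the readout gene, the 250 bases before its RefSeq start are printed here (GRCr8, chr10:94398535-94398784, plus strand), with the TCF/LEF core letters in capitals. The stretches before Wnt5a (chr16:3703415-3703664, plus strand) and Sfrp5 (chr1:250960513-250960762, minus strand) follow, as those of the ligand and the inhibitor with the lowest ratios among genes of at least 20 reads.
Axin2: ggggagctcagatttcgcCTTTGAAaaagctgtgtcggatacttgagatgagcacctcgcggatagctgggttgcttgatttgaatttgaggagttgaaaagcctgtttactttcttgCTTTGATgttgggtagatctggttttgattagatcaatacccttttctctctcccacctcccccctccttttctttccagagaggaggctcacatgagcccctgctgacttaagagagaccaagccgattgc
Wnt5a: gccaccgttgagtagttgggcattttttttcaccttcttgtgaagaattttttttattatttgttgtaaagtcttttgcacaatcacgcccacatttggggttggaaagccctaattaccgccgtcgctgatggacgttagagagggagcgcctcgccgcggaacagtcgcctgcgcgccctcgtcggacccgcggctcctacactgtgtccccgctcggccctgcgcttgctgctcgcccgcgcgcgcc
Sfrp5: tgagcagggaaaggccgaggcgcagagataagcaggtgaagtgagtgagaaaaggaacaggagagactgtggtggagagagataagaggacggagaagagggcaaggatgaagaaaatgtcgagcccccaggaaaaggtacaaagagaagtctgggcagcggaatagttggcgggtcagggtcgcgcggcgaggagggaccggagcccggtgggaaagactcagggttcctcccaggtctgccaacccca
The letters searched were CTTTGAT and its variant CTTTGAA on both strands, which do not overlap here. In Axin2 the first begins at position -132 and the second at -232, counted from the start. A RefSeq promoter entry was found for 30 of the 43 genes, and Axin2 was the 1 gene among these (3.33%) with either form in this window, against 7.58% of 27457 promoters. The Wnt5a and Sfrp5 windows hold neither. The windows of the 30 genes had a median of 67.6% G and C and 23 CG pairs, against 52.0% and 6 over all promoters. The GC box GGGCGG was found on either strand in 18 of 30 (60.0%), against 32.4% of all promoters. The TATA box letters TATAAA were found in 0 of 30, against 13.1%. No filter for protein-coding genes or for genes listed here was applied to the 27457 promoters, whereas all 30 genes are protein-coding. These shares may thus compare unlike kinds of gene.

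The transcription factors at the end of the branch had intervals that include 1. Tcf7l2, the main TCF of many adult tissues, had 266 reads (6.32 RPKM) with KXH and 287 reads (6.35 RPKM) with water, a ratio of 0.996 (0.839 to 1.18) that passed 1 under TMM scaling (1.01). Tcf7l1, which often represses targets, had 245 reads (6.37 RPKM) with KXH and 223 reads (5.40 RPKM) with water, at 1.18 (0.980 to 1.42). Lef1 had 2 reads in each library.

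Over the 34 Wnt genes with at least 20 reads, 15 ratios were above 1 and 19 below (55.9% below), against 55.3% below among all 11489 genes. With TMM scaling the numbers were 18 above and 16 below, and the share below was 50.9% among all genes. The median log2 ratio, with 0.1 added to each RPKM, was -0.01 for the Wnt genes and -0.02 for all genes.

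The further genes of the pathway were read as lists by role, given by counts over genes with at least 20 reads. Among all such genes 10.4% of intervals lay above 1 and 15.8% below, and at 500 or more reads the shares were 13.6% and 19.3%. The counts are descriptions, and none is read as particular to its list. Genes eligible for naming but left out here all have intervals that include 1, so the named genes look more shifted than their lists. Of 6 genes of ligand maturation and release, 4 were higher and 2 lower. Porcn, the enzyme that attaches the lipid to Wnt ligands, had 43 reads (1.63 RPKM) with KXH and 78 reads (2.76 RPKM) with water, a ratio of 0.592 (0.398 to 0.870). Wls, which carries finished ligands to the surface, had a ratio of 0.969 (0.916 to 1.03) at 57.9 RPKM with KXH and 59.8 RPKM with water. The heparan sulphatase Sulf2 and the glypican Gpc4, which tune ligands at the cell surface, had ratios of 1.25 (1.16 to 1.34) and 1.13 (1.04 to 1.23). Of 11 other receptors and surface regulators, 6 were higher and 5 lower. Kremen1, a receptor for Dickkopf, was higher at 1.31 (1.05 to 1.64) and Lrp4 at 1.11 (1.04 to 1.2). The Wnt receptor Ryk was at 0.933 (0.871 to 0.999), an interval that includes 1 under TMM and median-ratio scaling. Ror2, a receptor for Wnt5a, had 33 reads with KXH and 19 with water, and is named after its values were seen. Its ratio was 1.86 (1.03 to 3.47). Ror1, on the same list, had 86 reads with KXH and 111 with water. The ratio of Ror1 was 0.832 (0.62 to 1.11), with an interval that includes 1.

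Inside the cell, the destruction complex and its kinases had 9 genes higher and 10 lower, with 4 of 19 intervals above 1 and 3 below. The phosphatase subunit Ppp2ca was at 1.25 (1.07 to 1.46), the kinase Csnk1a1 at 1.09 (1.02 to 1.16) and Apc2 at 0.860 (0.761 to 0.970). Nuclear cofactors had 5 higher and 12 lower, with 3 of 17 intervals below 1, among them the helicase Chd8 at 0.917 (0.861 to 0.977). Their most abundant member, the corepressor Aes, was at 497 RPKM with KXH and 496 RPKM with water. The feedback inhibitors had 4 higher and 3 lower, with a median log2 ratio of 0.03 and 0 intervals above 1 and 2 below. Farthest from 1 among those of at least 100 reads was Dact3, at 1.405 (0.9645 to 2.056), whose interval includes 1. Nkd2, which binds Dishevelled, was at 0.819 (0.696 to 0.964). Its relative Nkd1, itself a target of beta-catenin and named after its values were seen, had 9 reads with KXH and 31 with water, a ratio of 0.312 (0.131 to 0.671).

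Of the planar polarity genes 7 were higher and 6 lower, with the formin Daam1 at 1.09 (1.03 to 1.16). Calcium branch genes had 5 higher and 11 lower, which became 8 and 8 under TMM scaling. In that list Prkca, a kinase with known effects on contractility, was at 1.26 (1.11 to 1.43) and the calcineurin subunit Ppp3cb at 0.895 (0.836 to 0.958). Known beta-catenin targets outside the set had 7 higher and 5 lower, 4 intervals above 1 and 2 below, and share Nkd1 and other genes with the lists above. Wisp2 had 95 reads (3.90 RPKM) with KXH and 60 reads (2.29 RPKM) with water, at 1.70 (1.22 to 2.39). Myc had 117 reads (3.56 RPKM) with KXH and 83 reads (2.35 RPKM) with water, at 1.51 (1.13 to 2.03). Tcf4, a helix-loop-helix factor distinct from Tcf7l2, was at 0.845 (0.794 to 0.899). Targets of the branch thus lay on both sides of 1 in the same pair of libraries, with Axin2 not separable from 1.

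**Figure D4:**
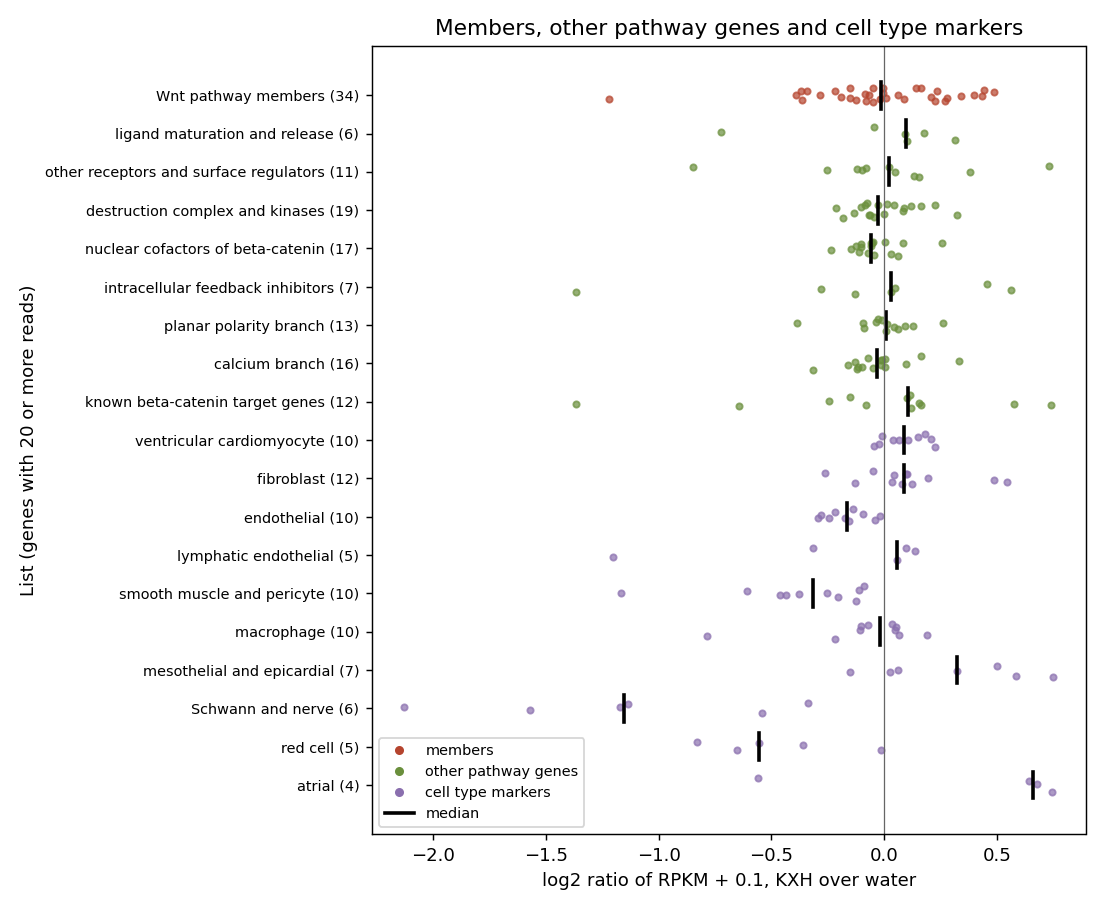
Log2 ratio (KXH over water, 0.1 added to each RPKM) of each gene with at least 20 reads in the Wnt set (top row), in the other pathway lists and in lists of cell type markers; bars are medians and the number of genes is in brackets. The Wnt set has its median at -0.01, smooth muscle and pericyte markers at -0.31, and Schwann and nerve markers at -1.15.

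Markers of several cell types differed between the same libraries. Among all genes with at least 20 reads 15.8% of intervals lay below 1 and 10.4% above. At 500 or more reads the shares were 19.3% and 13.6%. Smooth muscle and pericyte markers were lower in 10 of 10 genes, with a median log2 ratio of -0.31. Of their intervals 9 lay below 1 (8 with TMM and 7 with median-ratio scaling). The summed level was 425 RPKM with KXH and 487 RPKM with water. Of this list Myh11, Pdgfrb, Cspg4, Abcc9 and Notch3 belong to the longest length class, where ratios ran low throughout. Endothelial markers were lower in 10 of 10, with 8 intervals below 1, a median of -0.16 and sums of 597 and 666 RPKM in the KXH and water libraries (under median-ratio scaling 9 of 10 were lower). Schwann cell and nerve markers were lower in 6 of 6, all with intervals below 1, at sums of 7.48 RPKM with KXH and 13.7 RPKM with water. The glial factor Sox10 had 43 reads with KXH and 107 with water (0.432, 0.296 to 0.620). Red cell markers were lower in 5 of 5, with 3 intervals below 1 and a median of -0.56 (4 of 5 were lower with TMM scaling), at sums of 2274 RPKM with KXH and 3342 RPKM with water.

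Fibroblast markers were higher in 9 of 12, with 7 intervals above 1 and 1 below. Their median was 0.09, at sums of 2162 RPKM with KXH and 2029 RPKM with water. Mesothelial and epicardial markers were higher in 6 of 7, with 3 intervals above 1 and 0 below. Their median was 0.33, at sums of 29.5 and 24.4 RPKM in the KXH and water libraries. Ventricular muscle markers were higher in 7 of 10, with a median of 0.09. Their intervals lay above 1 in 7 and below in 3 (8 and 1 with TMM scaling). Atrial markers were higher in 3 of 4 (Nppa, Myl4 and Sln), with 3 intervals above 1, 0 below and a median of 0.66. Nppa had 16495 reads over both libraries, against 121 for Myl4 and 80 for Sln. Myl7 was at 0.665 (0.306 to 1.39), and Bmp10, too sparse for the count, had 2 reads with KXH and 7 with water. Whether the libraries differed in atrial tissue was not tested. Of the lymphatic markers 3 were higher and 2 lower, and of the macrophage markers 5 and 5. The fat cell markers were at or near 0: Lep, Plin1, Cidec and Car3 had between 0 and 5 reads in each library and Adipoq and Retn had no row. The part of these cell types in the lower Wnt5a, Fzd4, Fzd6, Sfrp1 and Sfrp5 was not tested.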

How the data were processed

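Total RNA of myocardium was extracted with Trizol and made into libraries with an Illumina TruSeq RNA kit, per the labels' protocols. The submitters' processing notes name Bowtie 0.12.2 and rn6 without their roles. The sources used here give no annotation, counting program or strand setting, and without strand a gene's reads cannot be parted from those of an overlapping antisense transcript. The deposited tables give for each gene a whole count of reads that the file headers call unique, which can lose reads shared by close relatives. The RPKM values were made by the authors and equal the count per kilobase of listed length per 1000000 reads of the table total (checked to a relative difference of 1e-09). An absent row counted as 0 reads. The lncRNA tables were not used.

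Groups came from the agent in the labels. The ratio is KXH over water, with a 95% interval (exact, Clopper-Pearson) computed from the KXH share of a gene's reads and the table totals. Reads carry no molecular identifiers, so that copies of 1 molecule are not recognised, and intervals and floors (3 reads) hold counting error only. Intervals between genes are exact conditional ones for the odds ratio of their reads. Medians used genes with at least 20 reads and 0.1 added to each RPKM. Every Wnt gene with at least 100 reads is named with its values. Of each other list up to 4 such genes with the ratio farthest from 1 and the most abundant one could be named, and not all are printed. Those not printed all have intervals that include 1, so the printed genes look more shifted than their lists. Members, lists and tests were chosen with earlier results of these data known. Alternatives were TMM totals, median-ratio totals, 99% intervals, other filters and pseudocounts, a mean and, chosen after seeing the data, division by the median ratio of the gene's length class (10 classes). The interval step was run on simulated counts that held counting error only, so that run cannot show how the intervals hold under variation between animals. Symbols and promoters came from RefSeq tables of GRCr8, and all 43 symbols matched. Tools were edgeR 4.0.16 in R 4.3.3 (for TMM only) and scipy 1.17.1, matplotlib 3.10.9, pandas 2.3.3 and numpy 2.4.6 in Python 3.11.15.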

Additional observations from a re-analysis of the deposited data

How the results depend on the processing

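The count of Wnt genes with an interval below 1 was 8, and it was 6 with TMM totals, with median-ratio totals and with the length adjustment, and 5 with 99% intervals. Fzd4 and Lrp5 had intervals that include 1 under each of these 4 settings, and Sfrp1 with 99% intervals. The count above 1 was 0 except with the length adjustment, where it was 1 (Apc). The median log2 ratio of the set, -0.01, changed sign with TMM totals (0.0081), median-ratio totals (0.0112) and the length adjustment (0.018). Both scalings raise every ratio by construction. The length adjustment does so too for the Wnt genes with at least 20 reads, except Wnt4 and Dkk4. The other genes belong to length classes with a median log2 ratio below 0. The median lay between -0.0479 and -0.0064 with other pseudocounts, filters and the mean. No gene of at least 100 reads was 1.5-fold apart under any scaling run. No paired analysis was possible because there is 1 library per group. For the same reason no library could be left out. Depth limits the genes under 100 reads, for example Wnt9b, whose interval runs from 0.817 to 2.67.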

Other observations

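The deposited coverage, the percent of a gene's listed length with reads, set Wnt11 and Dkk4 apart from genes of like depth. Wnt11 was covered over 70.8% of its 2582 bases with KXH and 80.1% with water. Genes of like reads and length (each within a factor of 1.25), 335 in the KXH table and 337 in the water table, had medians of 97.7% and 97.9%. Dkk4 was covered over 71.3% of its 1491 bases with KXH and 74.9% with water, where 285 and 280 such genes had medians of 96.3% in both libraries. Smaller shortfalls were seen in several genes with intervals below 1. Fzd6 was covered over 89.0% with KXH and 93.0% with water, where like genes had medians of 97.95% and 98.4%. Wnt5a, set against Wnt11 above, was at 95.2% and 91.7%, against 97.4% and 97.9%. Fzd4, Sfrp1 and, slightly, Lrp5 were also below such medians, while Lrp6 and Ctnnb1 were above. The RPKM of the less covered genes divides reads by the whole listed length. Their levels relative to other Wnt genes carry this limit, which applies to both libraries.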
